A study of Mus musculus with 16 samples.

Results

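Hepatokines are proteins that the liver releases into the blood and that act on other tissues or on blood lipids. The 9 hepatokine genes described here, Fgf21, Angptl4, Angptl8, Gdf15, Inhbe, Fetub, Ahsg, Selenop and Lect2, were chosen by symbol as liver products known from work on fasting and obesity. The choice was made with earlier results of these data known. All 9 were found by gene identifier among the 46078 genes of the count table. Liver mRNA was sequenced from C57BL6/J mice (the labels spell the strain C56B6/J), male and unmodified, kept from 8 weeks of age for 16 weeks on control chow, abbreviated CD, or on a diet rich in fat, abbreviated HFD, with 60% of calories from fat. The 4 groups were CD fed, CD fast, HFD fed and HFD fast, where fed mice ate ad libitum until harvest and fasted mice had no food for 16 h. Each group had 4 libraries that the labels give as separate samples, so n = 4 throughout and each p-value measures the spread between such samples. Levels are TMM-scaled CPM, that is, reads per 1e6 reads of a library after edgeR's trimmed-mean correction for composition, and errors of levels are SD.

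Several of these genes are known targets of programmes that read the nutritional state of hepatocytes. Transcription of Fgf21 and Angptl4 responds to fatty acids through PPARalpha, that of Fgf21 and Inhbe also to amino acid shortage or endoplasmic reticulum stress through ATF4, and that of Angptl8 to insulin and carbohydrate through the lipogenic regulators SREBP-1c, LXR and ChREBP. The fetuins Ahsg and Fetub, the selenium carrier Selenop and the chemokine-like Lect2 are plasma proteins made mostly by hepatocytes and studied as links between fatty liver and insulin resistance.

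Because ATF4 acts together with C/EBP proteins on an element with the letters TGATGNAA, the 300-base RefSeq promoter windows of build GRCm38.p6 (250 bases before to 50 after the start site) were searched for it on both strands. Windows were given for 8 of the 9 genes, 12 windows in all, and Angptl4 had none. The exact form TGATGCAA, which TGATGNAA includes, stood in the windows of 3 genes, Fgf21, Angptl8 and Inhbe, against 0.895% of all 32851 windows (3.97% for TGATGNAA). The motif was chosen after the sequences had been seen, so the share of all windows is a description and gives no test of the 3 matches. The lines below show the stretches that hold it, 5′ to 3′ on the gene's strand with the 8 letters (or their reverse complement) in capitals, namely the 200 bases before the start of Fgf21 (minus strand, chr7:45615491-45615690) and of Angptl8 (plus strand, chr9:21835310-21835509), and 30 bases around the match of Inhbe (minus strand, chr10:127352011-127352040).
Fgf21: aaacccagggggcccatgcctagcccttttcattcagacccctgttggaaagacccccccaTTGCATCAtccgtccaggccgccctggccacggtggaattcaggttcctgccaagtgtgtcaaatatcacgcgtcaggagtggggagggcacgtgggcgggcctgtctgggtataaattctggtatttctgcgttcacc
Angptl8: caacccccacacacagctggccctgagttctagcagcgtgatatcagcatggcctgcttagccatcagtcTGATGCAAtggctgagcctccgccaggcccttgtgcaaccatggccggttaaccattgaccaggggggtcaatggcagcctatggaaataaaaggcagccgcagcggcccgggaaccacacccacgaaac
Inhbe: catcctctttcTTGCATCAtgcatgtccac

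The first base of the match lay 139 bases before the RefSeq start site of Fgf21, 130 before that of Angptl8 and 181 before that of Inhbe. The gene model of Inhbe in GENCODE M21 (chr10:127348857-127354411, minus strand) begins 2563 bases before the RefSeq start site, so under that model the Inhbe match lies inside the gene. Of the other letters searched on both strands, the E-box CACGTG stood once before Fgf21, 50 bases upstream, and in 1 window of Gdf15 (7.15% of all windows). The TATA letters TATAAA stood 28 bases before the start site of Fgf21 (13.6% of all windows). They also stood 31 bases before the start site in 1 of the 2 windows of Fetub and 10 before it in 1 of the 3 windows of Selenop. That Selenop window, chr15:3270727-3271026, lies inside the gene, which begins at base 3268547 on the plus strand. AGGTCA stood in a window of Gdf15 (16.3%). No window of the 9 genes held the cyclic AMP element TGACGTCA (1.79% of all windows) or AGGTCANAGGTCA, 2 copies of AGGTCA with 1 base between them (0.0396%). A match describes letters and is not a measured binding site.

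Read depth was ample for all 9 genes. Library totals ran from 41364448 to 57583153 counts, the lowest count of any of the 9 genes in any library was 103 (Gdf15), and the highest was 556592 (Ahsg). Per kilobase of merged exons (GENCODE M21), the CD fed order was Ahsg at 3757 ± 504 CPM per kb, Selenop at 1712 ± 131, Fetub at 194 ± 17.2, Angptl8 at 79.4 ± 44.6, Lect2 at 75.8 ± 14.2, Angptl4 at 59.0 ± 6.51, Inhbe at 11.3 ± 5.41, Fgf21 at 6.03 ± 5.17 and Gdf15 at 3.12 ± 1.29. The spread of Angptl8 covered the means of both Lect2 and Angptl4. In HFD fast livers Angptl8 was at 24.3 ± 8.74 CPM per kb, below Inhbe at 35.8 ± 11.8 and near Fgf21 at 22.1 ± 12.7. The Inhbe value rests on a GENCODE model that begins 2563 bases before the RefSeq start site, and a shorter model would give a higher value per kb.

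**Figure D1:**
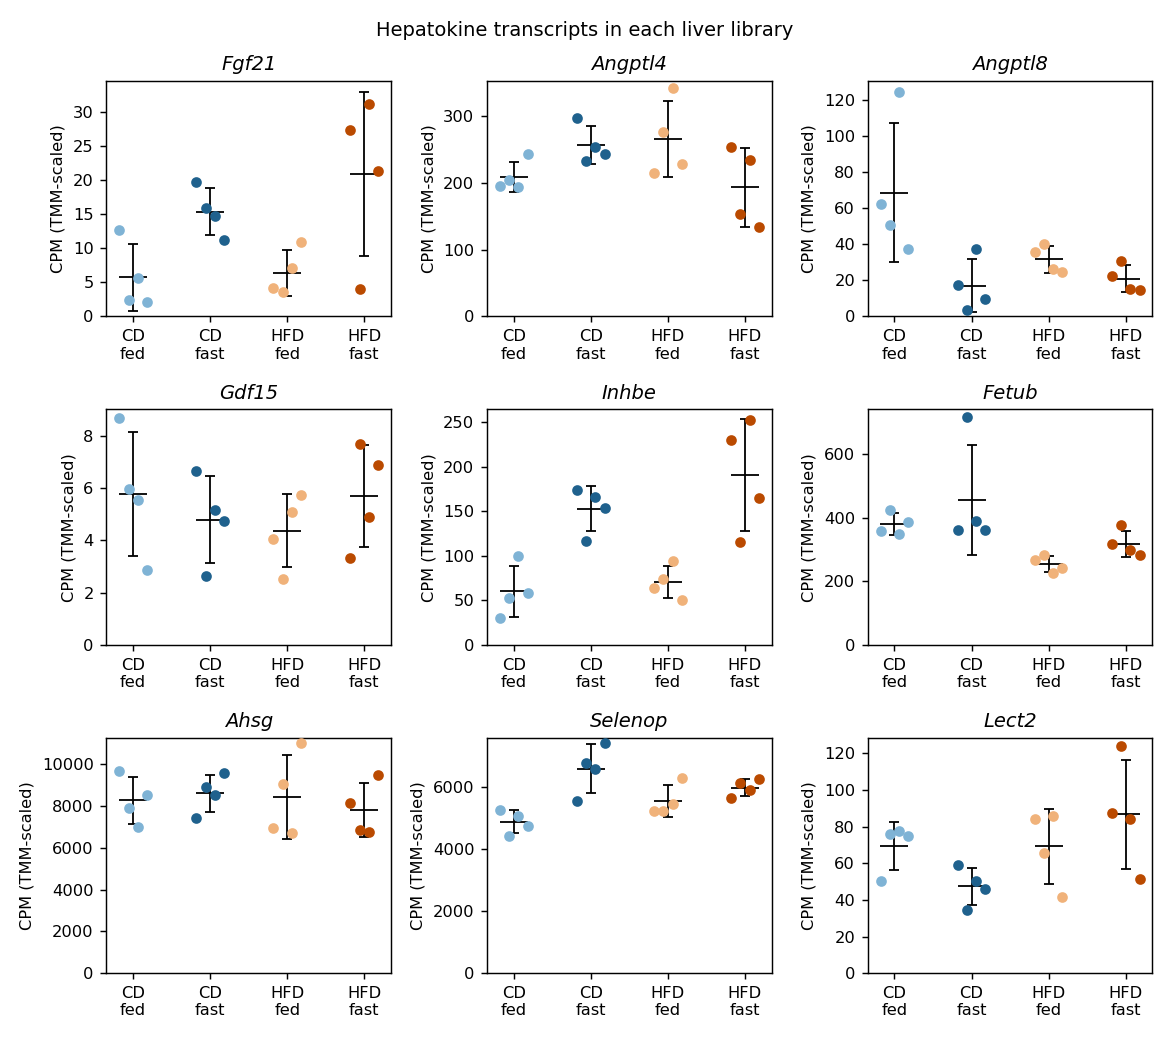
TMM-scaled CPM (vertical axes, starting at 0) of the 9 hepatokine genes in the 16 liver libraries, with 1 point per library, horizontal bars for the mean of 4 and error bars for the SD. Both fasted groups of Inhbe lie above both fed groups, the HFD fast library of Fgf21 at 3.99 CPM and the CD fast library of Fetub at 715 CPM stand apart from the rest of their groups, and Ahsg overlaps in all 4 groups.

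Fasting in CD mice changed 3 of the 9 genes at an adjusted p under 0.05, Inhbe and Selenop upwards and Angptl8 downwards. Of all 15075 genes tested, 25.2% passed in this comparison (13.7% higher and 11.5% lower), so 3 of 9 stands close to the share of genes in general. Fasting in HFD mice changed 1 of the 9, Inhbe upwards, where 8.86% of all genes passed (4.78% higher and 4.07% lower). The median log2 change of the 9 genes was 0.27 for fasting in CD mice and 0.32 in HFD mice, and that of all genes tested was -0.01 and 0.01.

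The high-fat diet changed none of the 9 genes in fed mice by edgeR, where 7.50% of all genes passed (3.28% higher and 4.22% lower). Among the 9, 2 had an unadjusted p under 0.05, DESeq2 called 1 and limma-voom 0. In fasted mice the diet changed 0 of 9 by edgeR as well, with 3 at an unadjusted p under 0.05, 2 called by DESeq2 and 0 by limma-voom, where 7.70% of all genes passed (3.05% higher and 4.65% lower). The split over all genes depended on scaling: 39.6% of the calls in fasted mice were higher with TMM and 88.1% with total counts, and 43.8% and 68.8% in fed mice. The test of whether the fasting change differed between the diets (the interaction) called 0 of 9 by edgeR, DESeq2 and limma-voom, with 2 at an unadjusted p under 0.05 by edgeR, and 2.59% of all genes passed it.

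Averages over both levels of the other factor were added after these results were seen. Averaged over both diets, fasting changed 4 of the 9 genes, Fgf21, Inhbe and Selenop upwards and Angptl8 downwards, with 28.8% of all genes passing (15.2% higher and 13.6% lower). Averaged over both feeding states, the high-fat diet changed 1 of the 9, Fetub downwards, with 12.0% of all genes passing (4.98% higher and 7.02% lower). To order the 4 group levels, HFD fed was also compared with CD fast, which called 2 of the 9 (Inhbe and Fetub) and 21.4% of all genes, and HFD fast with CD fed, which called 3 (Fgf21, Inhbe and Angptl8) and 22.9%. DESeq2 called 3 and 4 of the 9, Selenop being the added gene in both (adjusted p = 0.0462 and 0.0159), and Selenop also passed in HFD fast against CD fed with total counts (0.0159) and the upper quartile (0.0485). These comparisons share groups with one another, so their calls are not independent.

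**Figure D2:**
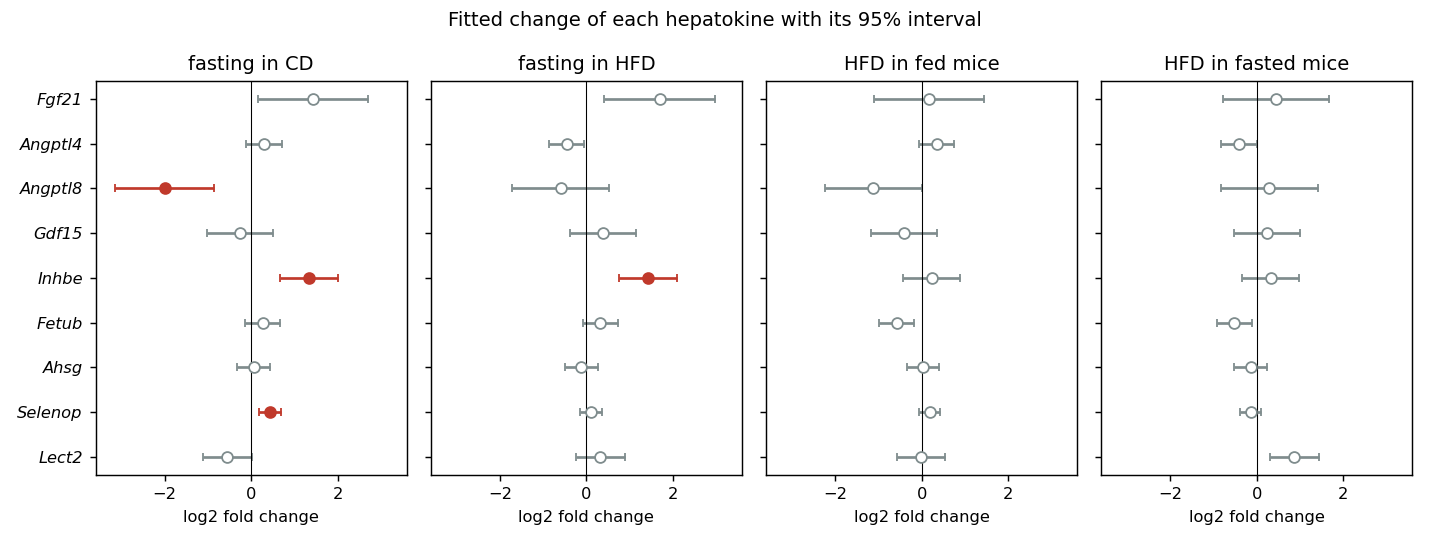
Fitted log2 fold change (horizontal axes) of each hepatokine gene in the 4 pairwise comparisons, with 95% intervals, filled where the adjusted p was under 0.05 and open otherwise. Inhbe is filled in both fasting panels, Angptl8 and Selenop in the CD fasting panel, and no gene is filled in the panels of the high-fat diet.

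Fgf21 (ENSMUSG00000030827, chr7:45613886-45615490, minus strand) encodes the hormone that acts on fat, brain and liver through FGF receptors with the co-receptor beta-Klotho. In CD fed livers it was at 12.7, 2.41, 5.64 and 2.16 CPM in replicates 1 to 4. In CD fast livers it was at 19.7, 15.9, 14.8 and 11.3 CPM. Only CD fed replicate 1 reached into the CD fast range, and without that library the lowest CD fast value was above all CD fed values. HFD fed livers held 4.13, 3.61, 7.14 and 10.9 CPM. In HFD fast livers it was at 27.4, 3.99, 31.2 and 21.4 CPM, so 3 of 4 lay above every HFD fed library and replicate 2 lay among them.

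With fasting, fitted Fgf21 was 2.69-fold higher in CD mice (log2 1.43 ± 0.59 SE, adjusted p = 0.0863) and 3.25-fold higher in HFD mice (log2 1.70 ± 0.59 SE, adjusted p = 0.0832), and neither comparison passed alone. Averaged over both diets the difference was 2.96-fold higher (log2 1.56 ± 0.41 SE, adjusted p = 0.0110) and passed. With replicate number as a block in the edgeR fit, the CD value alone was 1.69 (adjusted p = 0.0369) and passed. Single libraries also decided the separate calls. Without CD fed replicate 1 the CD value was 2.18 (adjusted p = 0.0173), and without HFD fast replicate 2 the HFD value was 2.03 (adjusted p = 0.0269) and the CD value 1.42 (adjusted p = 0.0426). The diet difference was 0.17 in fed mice (95% interval -1.10 to 1.45) and 0.44 in fasted mice (-0.79 to 1.68), intervals wide enough to hold a change of 2-fold in either direction in fed mice. From low to high the groups ran CD fed, HFD fed, CD fast and HFD fast, and no neighbours in that order differed at an adjusted p under 0.05, whereas its ends did, by 1.87 ± 0.59 SE on the log2 scale (adjusted p = 0.0321). That last call was lost in 6 of the 16 fits without 1 library, namely each fit that left out a CD fed library other than replicate 1 or an HFD fast library other than replicate 2, with an adjusted p of up to 0.0890. With only the groups compared it was lost as well (1.86, adjusted p = 0.0834), while the neighbours HFD fed and CD fast then differed (-1.24, adjusted p = 0.0361).

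The HFD fast library with low Fgf21, replicate 2, also had the lowest Inhbe (115 CPM) and the highest Lect2 (124 CPM), Fetub (376 CPM), Angptl8 (31.0 CPM) and Gdf15 (7.68 CPM) of its group. It held 70.1 CPM of Cfd, the adipocyte product adipsin, against 2.06 to 14.9 CPM in the other 3 HFD fast libraries and 0.257 to 6.93 CPM in all other groups. The adipocyte-defining Adipoq, Lep and Plin1 were at 0.0680, 0.0227 and 0 CPM in that library, at or under the 0.0680 CPM that 3 counts are worth there. The part of this in the other values was not tested.

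Angptl4 and Angptl8 encode inhibitors of lipoprotein lipase (LPL), the enzyme that releases fatty acids from circulating triglycerides. ANGPTL4 is known to act mainly on LPL in fat during fasting, and ANGPTL8 to restrain LPL in muscle after feeding. Angptl4 (ENSMUSG00000002289, chr17:33773750-33781830, minus strand) was at 196, 204, 193 and 243 CPM in CD fed livers and at 297, 232, 253 and 243 CPM in CD fast livers. HFD fed livers held 215, 276, 342 and 228 CPM, and in HFD fast livers at 253, 153, 234 and 134 CPM. The CD fast libraries lay at the top of or above the CD fed range, while the HFD fast libraries spread from below to within the HFD fed range.

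The fitted log2 change of Angptl4 with fasting was 0.29 ± 0.19 SE in CD mice (adjusted p = 0.273) and -0.46 ± 0.19 SE in HFD mice (adjusted p = 0.143). These have opposite signs, and their difference was -0.75 ± 0.27 SE with an unadjusted p of 0.0130 that did not hold after adjustment (0.134). The high-fat diet gave 0.35 ± 0.19 SE in fed mice (adjusted p = 0.297) and -0.41 ± 0.19 SE in fasted mice (adjusted p = 0.188). In order of level the groups ran HFD fast, CD fed, CD fast and HFD fed, all within 193 to 265 CPM as means, and no neighbours differed at an adjusted p under 0.05.

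Angptl8 (ENSMUSG00000047822, chr9:21835510-21837347, plus strand) was at 62.2, 50.6, 125 and 37.4 CPM in CD fed livers. In CD fast livers it was at 17.5, 3.66, 37.4 and 9.79 CPM, lower in 3 libraries and level with the lowest fed library in replicate 3. The fall with fasting in CD mice was 4.01-fold (log2 -2.003 ± 0.53 SE, adjusted p = 0.0121), and it ran from -2.74 without CD fast replicate 3 to -1.55 without CD fed replicate 3, with an adjusted p of at most 0.0447. In HFD fed livers it was at 35.7, 40.2, 26.2 and 24.9 CPM, and in HFD fast livers at 22.6, 31.0, 15.5 and 14.9 CPM. The ranges of the HFD groups overlapped, and the fasting change there was -0.60 ± 0.51 SE (adjusted p = 0.492).

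The high-fat diet moved Angptl8 by -1.11 ± 0.51 SE in fed mice (adjusted p = 0.206), with 1 HFD fed library above the lowest CD fed library. In fasted mice the diet value was 0.29 ± 0.51 SE (adjusted p = 0.761). The fasting changes in the diets differed by 1.41 ± 0.72 SE (adjusted p = 0.288), so a smaller response in HFD mice was not established. The order from low to high was CD fast, HFD fast, HFD fed and CD fed, in which no neighbours differed at an adjusted p under 0.05. The comparison of HFD fast with CD fed passed (log2 -1.71 ± 0.52 SE, adjusted p = 0.0270), without overlap of the libraries, but lost the call without CD fed replicate 3 (-1.25, adjusted p = 0.101) and without HFD fast replicate 1, 3 or 4 (adjusted p = 0.0564, 0.0744 and 0.0697).

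Angptl8 lies inside an intron of Dock6, a guanine nucleotide exchange factor gene on the opposite strand, and the merged exons of these genes share 0 bases. Dock6 was at 26.95 ± 3.81 CPM in CD fed livers and 14.1 ± 0.629 after the fast, and under HFD at 22.6 ± 2.04 fed and 19.2 ± 1.61 fasted, the same order of groups as Angptl8. Dock6 fell with fasting in CD mice (log2 -0.93, adjusted p = 1.83e-05), and its interaction of diet and fasting was 0.70 (adjusted p = 0.0180). Reads were aligned with a strand-specific library setting, but whether strand was used in counting is not given in the sources used here, so a part of Dock6 intron reads in the Angptl8 counts was not tested. Lpl itself was at 24.5 ± 23.1, 11.7 ± 1.26, 18.2 ± 17.7 and 26.7 ± 21.1 CPM in the groups taken in the order CD fed, CD fast, HFD fed, HFD fast, and passed in none of the 4 pairwise comparisons.

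Gdf15 and Inhbe belong to the TGF-beta superfamily. GDF15 is a stress-induced hormone that lowers food intake through the brainstem receptor GFRAL, and Inhbe encodes the subunit of activin E, which acts on fat tissue and restrains lipolysis. Gdf15 (ENSMUSG00000038508, chr8:70629393-70632456, minus strand), the lowest of the 9 genes per kb, was at 8.69, 5.97, 5.55 and 2.88 CPM in CD fed and 6.65, 2.64, 5.16 and 4.72 CPM in CD fast livers. Under HFD, fed livers held 4.07, 2.54, 5.08 and 5.75 CPM, and in HFD fast livers at 3.32, 7.68, 4.91 and 6.87 CPM. All 4 groups overlapped and their means lay between 4.36 and 5.77 CPM. No comparison of Gdf15 passed, and the 95% intervals on the log2 scale were -1.03 to 0.49 for fasting in CD mice, -0.38 to 1.15 for fasting in HFD mice, -1.17 to 0.36 for the diet in fed mice and -0.52 to 1.01 for the diet in fasted mice. The order was HFD fed, CD fast, HFD fast and CD fed, without a difference between neighbours.

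Inhbe (ENSMUSG00000047492, chr10:127348857-127354411, minus strand) was the one member called with fasting in both diets. In CD fed livers it was at 30.5, 52.4, 99.4 and 58.4 CPM, and in CD fast livers at 174, 117, 166 and 154 CPM. In HFD fed livers it was at 63.9, 74.5, 94.0 and 50.3 CPM, and in HFD fast livers at 230, 115, 252 and 164 CPM. Every one of the 8 fasted libraries lay above every one of the 8 fed libraries, with the gap between 99.4 and 115 CPM.

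Inhbe rose with fasting 2.54-fold in CD mice (log2 1.34 ± 0.31 SE, adjusted p = 0.00559) and 2.70-fold in HFD mice (log2 1.43 ± 0.31 SE, adjusted p = 0.0118). Both calls held in each of the fits without 1 library, with values from 1.12 to 1.70 in CD mice and from 1.27 to 1.60 in HFD mice. The difference between the diets was 0.09 ± 0.43 SE (95% interval -0.85 to 1.02), which leaves room for responses that differ by up to 2-fold. The high-fat diet gave 0.23 ± 0.30 SE in fed mice (adjusted p = 0.705) and 0.32 ± 0.30 SE in fasted mice (adjusted p = 0.542). In the fits without 1 library these diet values ran from 0.01 to 0.58 and from 0.15 to 0.50. The order was CD fed, HFD fed, CD fast and HFD fast, and the step from HFD fed to CD fast was the one between neighbours that passed (HFD fed lower by log2 -1.11 ± 0.31 SE, adjusted p = 0.0188, or 0.0541 without HFD fed replicate 1).

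Of the 5 genes of the inhibin and activin family, 4 could be tested (Inha was too low). Inhbc, which encodes activin C and lies 1.91 kb from Inhbe, was at 66.8 ± 7.70 CPM in fed and 86.8 ± 13.0 CPM in fasted CD mice, and at 67.0 ± 12.3 and 100.2 ± 25.0 CPM in HFD mice. It passed with fasting in HFD mice at the edge of the threshold (log2 0.58, adjusted p = 0.0499, libraries overlapping), and 14 of the 16 fits without 1 library lost that call (adjusted p up to 0.157). Inhba, which encodes the subunit of activin A, went the other way in CD mice, from 8.37 ± 2.82 to 3.28 ± 0.969 CPM (log2 -1.35, adjusted p = 0.0122). No member of the family passed for the diet in fed or in fasted mice by edgeR, DESeq2 or limma-voom, and 1 had an unadjusted p under 0.05 in each of these by edgeR, where 7.50% and 7.70% of all genes passed. The Inhba call came with a lower summed level of Kupffer cell and macrophage markers in CD fast livers (98.1 to 164 CPM, against 148 to 292 in CD fed livers). Of these markers, 2 of 6 were called lower, while 11.5% of all genes were. The shift was not particular to macrophages. Summed markers of endothelium (147 to 194 against 198 to 223 CPM) and of stellate cells (114 to 190 against 182 to 233 CPM) were lower in CD fast livers too. Lymphocyte markers were not (1.22 to 2.25 against 0.903 to 2.64 CPM). The part of these shifts in the Inhba value was not tested. In bulk liver, fewer cells of a type and less RNA per cell cannot be told apart.

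Ahsg and Fetub encode the fetuins, cystatin-type glycoproteins of plasma that inhibit mineral growth or proteases, and fetuin-A also binds the insulin receptor. The genes lie 18.9 kb apart on chromosome 16. Fetub (ENSMUSG00000022871, chr16:22918334-22939778, plus strand) was at 359, 423, 348 and 388 CPM in CD fed livers and at 267, 284, 227 and 241 CPM in HFD fed livers. These ranges did not overlap. In CD fast livers it was at 361, 715, 389 and 362 CPM, and in HFD fast livers at 316, 376, 297 and 284 CPM. There 3 of 4 HFD libraries lay under the lowest CD library and replicate 2 lay within the CD range.

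The log2 difference of Fetub with the high-fat diet was -0.57 ± 0.18 SE in fed mice (adjusted p = 0.0691) and -0.52 ± 0.18 SE in fasted mice (adjusted p = 0.0899). Averaged over both feeding states it was 1.46-fold lower in HFD mice (log2 -0.55 ± 0.13 SE, adjusted p = 0.0150), which passed and held in each fit without 1 library (-0.60 to -0.40). The call in fed mice was made by DESeq2 (adjusted p = 0.0273), with only the groups compared (0.0113), and without CD fast replicate 2 (-0.57, adjusted p = 0.00430), the library with 715 CPM, which is outside that comparison but enters the shared estimate of spread. In fasted mice DESeq2 also made the call (-0.53, adjusted p = 0.0431), while without CD fast replicate 2 the value was -0.22 (adjusted p = 0.235). With replicate number as a block in the edgeR fit, Fetub was called in fed (adjusted p = 0.0203) and fasted mice (0.0404). The fasting change was 0.27 ± 0.18 SE in CD mice (adjusted p = 0.308) and 0.32 ± 0.18 SE in HFD mice (adjusted p = 0.293). The order was HFD fed, HFD fast, CD fed and CD fast, no neighbours differed, and HFD fed lay below CD fast by log2 -0.84 ± 0.19 SE (adjusted p = 0.00579, or -0.54 and 0.00610 without CD fast replicate 2).

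Ahsg (ENSMUSG00000022868, chr16:22891277-22899449, plus strand) was the most abundant of the 9 genes per kb. It was at 9628, 7881, 6995 and 8511 CPM in CD fed livers and at 7419, 8906, 8504 and 9539 CPM in CD fast livers. HFD fed livers held 6950, 9031, 6708 and 10996 CPM, and in HFD fast livers at 8111, 6819, 6759 and 9450 CPM. The 4 ranges overlapped, and the 95% interval of each pairwise comparison lay within -0.52 to 0.43 on the log2 scale, so a change of 1.5-fold or more lay outside all 4. Its order was HFD fast, CD fed, HFD fed and CD fast, without a difference between neighbours. The other cystatin-type plasma proteins of the liver were Hrg, histidine-rich glycoprotein, which rose with fasting in HFD mice (log2 0.50, adjusted p = 0.0133), and the kininogens, of which Kng1 was lower with the diet in fed mice (log2 -0.47, adjusted p = 0.00910). By edgeR these were the calls among the 5 genes in the pairwise comparisons. Fasting in CD mice had 0 by edgeR and limma-voom, 2 by DESeq2 and 2 at an unadjusted p under 0.05, and the diet had 2 by DESeq2 in fed mice and 1 in fasted mice, Fetub among them in both. Of all genes, edgeR called 25.2% with fasting in CD mice, 8.86% with fasting in HFD mice, and 7.50% and 7.70% for the diet in fed and fasted mice.

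Selenop (ENSMUSG00000064373, chr15:3268547-3280508, plus strand) encodes selenoprotein P, the plasma protein that carries selenium from the liver to other tissues and that impairs insulin signalling when in excess. It was at 5253, 4407, 5061 and 4744 CPM in CD fed livers and at 5520, 6771, 6571 and 7409 CPM in CD fast livers, without overlap. In HFD fed livers it was at 5217, 5220, 5432 and 6280 CPM, and in HFD fast livers at 5624, 6098, 5884 and 6234 CPM, where the highest fed library lay above all fasted ones. Selenop rose 1.35-fold with fasting in CD mice (log2 0.43 ± 0.11 SE, adjusted p = 0.0122), with values from 0.36 to 0.51 and an adjusted p of at most 0.0458 in the fits without 1 library. In HFD mice the fasting value was 0.11 ± 0.11 SE (adjusted p = 0.598), and the difference between the diets was -0.33 ± 0.16 SE (adjusted p = 0.267). The average over both diets was 0.27 ± 0.08 SE (adjusted p = 0.0204), and this call was lost without CD fast replicate 4 (adjusted p = 0.0551).

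The high-fat diet gave 0.19 ± 0.11 SE for Selenop in fed mice (adjusted p = 0.356) and -0.14 ± 0.11 SE in fasted mice (adjusted p = 0.466). The order was CD fed, HFD fed, HFD fast and CD fast, without a difference between neighbours. Exons of Selenop share 439 bases with Ccdc152 on the opposite strand, whose 64 counts over all libraries are small beside the 4396636 of Selenop. Among the 12 tested of 13 genes that handle selenium, Selenop included, fasting raised 2 and lowered 1 in both diets, beside 25.2% of all genes called in CD and 8.86% in HFD mice. Gpx4, the glutathione peroxidase that protects membrane lipids, rose in CD (log2 0.34, adjusted p = 0.0101) and HFD mice (log2 0.32, adjusted p = 0.0315). Selenbp2, a selenium-binding protein gene with near-identical relatives, fell in CD (log2 -3.92, adjusted p = 0.00226) and HFD mice (log2 -2.76, adjusted p = 0.0329), and Secisbp2, needed to read UGA as selenocysteine, rose in HFD mice (log2 0.26, adjusted p = 0.0208). Of the 16 fits without 1 library, 6 lost the HFD call of Gpx4, 5 that of Selenbp2 and 3 that of Secisbp2 (adjusted p up to 0.107). The diet changed 0 of the 12 by edgeR and limma-voom in fed mice (4 had an unadjusted p under 0.05, 3 passed by DESeq2) and 0 in fasted mice (3 unadjusted, 2 by DESeq2), beside 7.50% and 7.70% of all genes.

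Lect2 (ENSMUSG00000021539, chr13:56542464-56548502, minus strand) encodes leukocyte cell-derived chemotaxin 2, a hepatokine that binds the receptors MET and TIE1. It was at 50.1, 75.8, 77.8 and 74.9 CPM in CD fed livers and at 59.0, 34.6, 50.6 and 45.8 CPM in CD fast livers. Under HFD, fed livers held 84.1, 65.8, 85.7 and 41.8 CPM, and in HFD fast livers at 87.3, 124, 84.4 and 51.5 CPM. In fasted mice 3 of 4 HFD libraries lay above every CD library, and HFD fast replicate 4 lay within the CD range.

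The diet difference of Lect2 in fasted mice was 1.83-fold (log2 0.87 ± 0.26 SE, adjusted p = 0.0507), just outside the threshold. It was called by DESeq2 (adjusted p = 0.0123), with total count scaling (1.01, 0.0180), with upper quartile scaling (0.0401), with a filter of 1 CPM in 4 libraries (0.0439), and without CD fed replicate 1 (0.0472), HFD fast replicate 4 (1.05, 0.0285) or HFD fed replicate 4 (0.0300). Without HFD fast replicate 2, the library with 124 CPM, it was 0.65 (adjusted p = 0.127). In fed mice the diet value was -0.01 ± 0.26 SE (95% interval -0.56 to 0.55). Fasting gave -0.55 ± 0.26 SE in CD mice (adjusted p = 0.129, or 0.0499 with only the groups compared) and 0.32 ± 0.26 SE in HFD mice (adjusted p = 0.453), and these differed by 0.88 ± 0.36 SE with an unadjusted p of 0.0286 and an adjusted p of 0.193. The order was CD fast, HFD fed, CD fed and HFD fast, without a difference between neighbours.

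**Figure D3:**
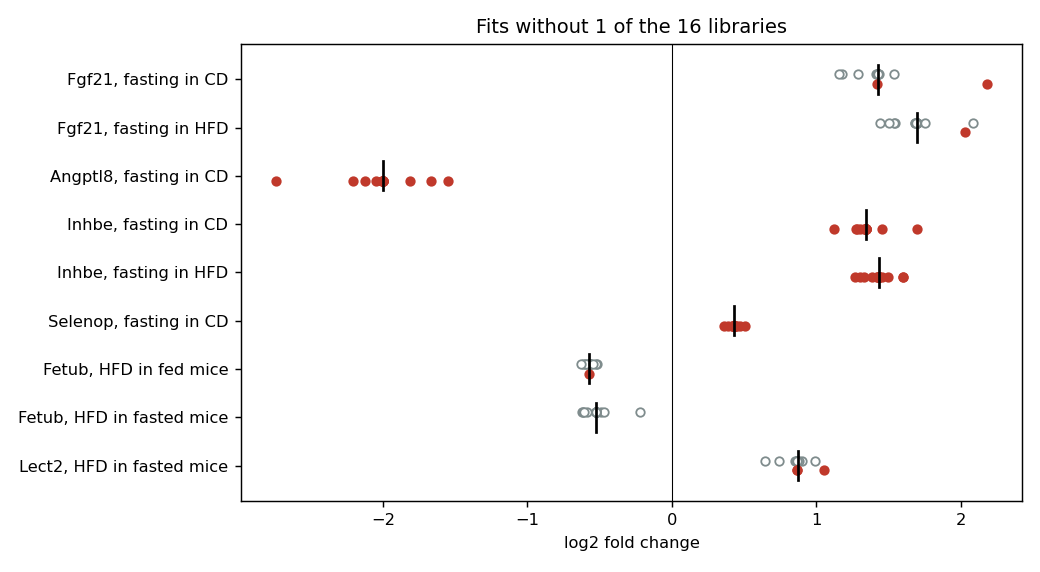
Fitted log2 fold change (horizontal axis) in the 16 fits that each left out 1 library, for 9 results, with filled red points (lower line of each pair) where the adjusted p was under 0.05, open points (upper line) where it was not, and a black bar at the value from all 16 libraries. Inhbe, Angptl8 and Selenop stay filled throughout, while Fgf21, Lect2 and the diet value of Fetub in fed mice hold both kinds of point.

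Receptors and partners of the 9 proteins were described from a list of 21 genes, of which 18 passed the filter on low counts. Fasting in CD mice raised 2 and lowered 5, where 25.2% of all genes passed, and fasting in HFD mice raised 2 and lowered 1, where 8.86% passed. By edgeR and limma-voom 0 passed for the diet in fed mice (4 had an unadjusted p under 0.05, and DESeq2 called 1), while the diet raised 2 and lowered 1 in fasted mice, where 7.50% and 7.70% of all genes passed. Gfral, the receptor of GDF15, had 0 counts in all 16 libraries, which allows up to 0.0536 to 0.0768 CPM per library. Acvr1c, the ALK7 receptor through which activin E acts on fat, had at most 9 counts in any library and was not tested.

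Klb encodes beta-Klotho, the co-receptor of FGF21. It was at 41.2, 45.6, 48.0 and 43.5 CPM in CD fed livers and at 41.3, 57.7, 49.5 and 46.3 CPM in CD fast livers. In HFD fed livers it was at 43.5, 46.6, 43.1 and 42.0 CPM, and in HFD fast livers at 26.4, 30.8, 26.0 and 25.6 CPM. All 4 HFD fast libraries lay below all 12 others. Klb fell with fasting in HFD mice (log2 -0.69 ± 0.09 SE, adjusted p = 0.00069) but not measurably in CD mice (0.13 ± 0.09 SE, adjusted p = 0.332), and the fasting changes differed (-0.81 ± 0.13 SE, adjusted p = 0.00838). In fasted mice it was 1.79-fold lower with the high-fat diet (log2 -0.84 ± 0.09 SE, adjusted p = 0.000881). All 3 calls held in every alternative run, with an adjusted p of at most 0.0213 in the fits without 1 library. The summed hepatocyte markers were also lower in HFD fast livers (69920 to 101300 CPM, against 107900 to 137000 in HFD fed and 87560 to 108600 in CD fast livers). Of 7 markers, 2 were called lower for fasting in HFD mice and 1 for the diet in fasted mice, where 4.07% and 4.65% of all genes were lower. The part of that shift was not tested.

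The FGF receptor genes Fgfr1, at means of 5.84 to 8.15 CPM, and Fgfr4, at 33.6 to 41.6 CPM, passed in no pairwise comparison. Fgfr2 and Fgfr3 fell with fasting in CD mice (log2 -0.49, adjusted p = 0.0391, and log2 -0.60, adjusted p = 0.0362, the libraries of Fgfr3 overlapping). The activin receptor gene Acvr2a fell in that comparison too (log2 -0.32, adjusted p = 0.0410). All of these are named here after their values were seen, and the dependence of the Fgfr2, Fgfr3 and Acvr2a calls on single libraries was not tested. For fasting in CD mice edgeR called 7 of the 18 receptors and partners, DESeq2 8, limma-voom 6 and edgeR with a replicate block 5. Acvr1b, the activin type I receptor ALK4, rose with fasting in CD mice from 10.6 ± 2.51 to 18.7 ± 2.75 CPM (log2 0.82, adjusted p = 0.000902) and in HFD mice from 14.3 ± 1.65 to 21.4 ± 1.73 CPM (log2 0.57, adjusted p = 0.0223), without overlap in either, and the HFD call was lost without HFD fast replicate 1 or HFD fed replicate 1 or 3 (adjusted p = 0.0665, 0.0713 and 0.0695). Of the LECT2 receptors, Met rose with fasting in HFD mice (log2 0.51, adjusted p = 0.0174) and in CD mice at the edge of the threshold (log2 0.34, adjusted p = 0.0454, or up to 0.146 in the 10 of 16 fits without 1 library that lost the call). Tie1 fell with fasting in CD mice from 18.2 ± 1.26 to 11.4 ± 1.70 CPM (log2 -0.68, adjusted p = 0.000256), and was higher with the diet in fasted mice (log2 0.48, adjusted p = 0.0128, or 0.0751 with only the groups compared). Tek, the partner receptor of Tie1, also fell with fasting in CD mice (log2 -0.53, adjusted p = 0.0127). Tie1 and Tek mark endothelium, whose 5 separate markers summed to 147 to 194 CPM in CD fast and 198 to 223 CPM in CD fed livers. Of these markers, 2 of 5 were called lower, while 11.5% of all genes were. In HFD fast livers the markers summed to 179 to 236 CPM. There 2 of 5 were called higher than in CD fast livers, while 3.05% of all genes were. The part of these shifts in the Tie1 and Tek values was not tested. Lrp1, a broad endocytic receptor, was higher with the diet in fasted mice (log2 0.36, adjusted p = 0.0396), a call lost in 9 of the 16 fits without 1 library (adjusted p up to 0.107).

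**Figure D4:**
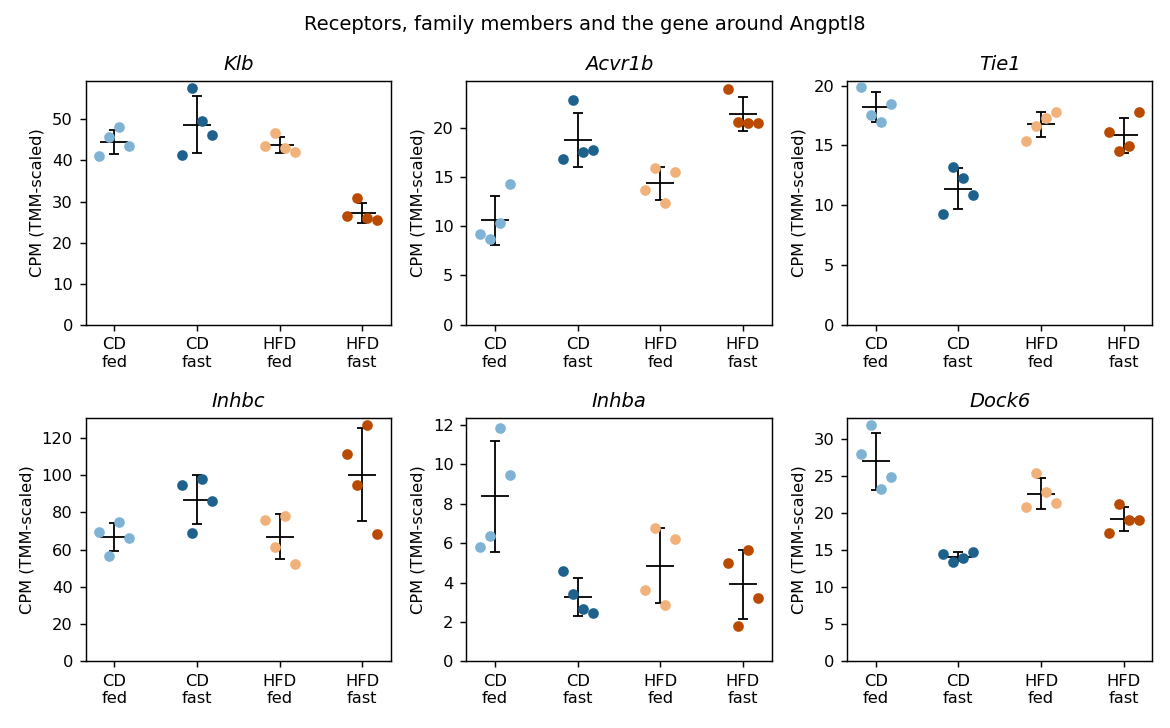
TMM-scaled CPM (vertical axes, starting at 0) of Klb, Acvr1b, Tie1, Inhbc, Inhba and Dock6 in the 16 libraries, with 1 point per library, horizontal bars for the mean of 4 and error bars for the SD. Klb is lowest in the 4 HFD fast libraries, at 25.6 to 30.8 CPM, and Acvr1b is higher in the fasted groups of both diets.

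The regulators named above were followed through 3 lists, which were chosen with earlier results of these data known. Of 22 genes for PPARalpha and its targets, fasting raised 19 and lowered 0 in CD mice and raised 8 and lowered 0 in HFD mice, where 25.2% and 8.86% of all genes passed. Fgf21 and Angptl4, which are targets too, are not in that list, and their own values stand above. The list's median log2 change was 1.16 in CD and 0.50 in HFD mice, beside -0.01 and 0.01 for all genes. Among those with the smallest adjusted p were Cyp4a10, Cyp4a14 and Acadl in CD mice and Cyp4a10 and Acadm in HFD mice, all enzymes of fatty acid oxidation. The Acadm call was lost in 2 of the 16 fits without 1 library (adjusted p up to 0.0668) and with only the groups compared (0.059). The diet raised 12 in fed mice (3.28% of all genes were higher), of which Cyp4a14, Acadl and the lipid droplet protein gene Plin5 had the smallest adjusted p, and lowered 2 in fasted mice (4.65% were lower), Ehhadh and Cyp4a10, calls that 4 and 5 of the 16 fits without 1 library lost. The interaction test called 9, beside 2.59% of all genes, all with a smaller fasting change in HFD mice. Ppara itself, at means of 203 to 280 CPM, passed in none of the pairwise comparisons. Its fasting values were log2 0.37 in CD mice (adjusted p = 0.0680) and 0.41 in HFD mice (adjusted p = 0.0786). Creb3l3, a fasting-activated factor that drives Fgf21 with PPARalpha, rose with fasting in CD mice (log2 0.79, adjusted p = 0.000603). In HFD mice its value was 0.34 (adjusted p = 0.122), and the interaction did not pass (-0.46, adjusted p = 0.181).

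Of 19 tested genes for ATF4 and its targets (25.2% of all genes passed with fasting in CD and 8.86% in HFD mice), fasting raised 0 and lowered 2 in CD mice by edgeR, Mthfd2 of mitochondrial folate metabolism and Chac1 of glutathione breakdown, and raised 0 and lowered 1 in HFD mice, Ppp1r15a, which reverses eIF2alpha phosphorylation. Inhbe, which rose in both diets, is not in that list, and neither is Fgf21 nor Gdf15. The median log2 change of the list was -0.08 and -0.14. DESeq2 called 4 of the 19 for fasting in CD mice, 2 for fasting in HFD mice and 4 for the diet in fasted mice, limma-voom 2, 0 and 2, and edgeR with a replicate block 1, 0 and 1. Of all genes, edgeR called 7.50% for the diet in fed mice and 7.70% for the diet in fasted mice. The Chac1 call was lost in 6 and the Ppp1r15a call in 9 of the 16 fits without 1 library (adjusted p up to 0.125 and 0.0951). In fed mice the diet raised Vldlr (log2 1.72, adjusted p = 0.0183, or 0.0513 without CD fed replicate 1), a lipoprotein receptor, and lowered Atf4 (log2 -0.44, adjusted p = 0.00924), and in fasted mice it lowered Ppp1r15a (log2 -0.73, adjusted p = 0.0106, or 0.0583 with only the groups compared). Ddit3, at means of 4.65 to 8.97 CPM, passed in no pairwise comparison. ATF4 is regulated mainly through translation, which mRNA counts do not measure.

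Of 18 lipogenic regulators and targets, beside which Angptl8 can be set, fasting lowered 15 and raised 0 in CD mice (25.2% of all genes passed) and lowered 10 and raised 0 in HFD mice (8.86%). The median log2 change was -2.05 in CD mice, where Angptl8 was at -2.003, and -1.01 in HFD mice, where Angptl8 was at -0.60. In CD mice the listed genes ran from -5.72 (Thrsp) to 0.56 (Insig2), and the 95% interval of Angptl8 was -3.15 to -0.86. Whether Angptl8 shares a control with these genes was not tested. Those with the smallest adjusted p were Fasn, Acaca and Pnpla3 in CD mice and Acaca, Fasn and Lpin1 in HFD mice. In fed mice the diet lowered 11 (4.22% of all genes were lower), of which Pnpla3, Acly, Fasn and Acaca had the smallest adjusted p (0.00031 for both Fasn and Acaca). The list median was -1.08 beside the -1.11 of Angptl8, which did not pass and was -0.66 without CD fed replicate 3. In fasted mice, where 7.70% of all genes passed, it raised 3, among them the regulator Srebf1 and Thrsp (adjusted p = 0.0556 and 0.0564 with only the groups compared), and lowered 1, the elongase Elovl6 (lost in 7 of the 16 fits without 1 library). Srebf1, which encodes SREBP-1, fell with fasting in CD (log2 -1.85, adjusted p = 2.79e-05) and HFD mice (log2 -1.06, adjusted p = 0.00624), and so did Mlxipl, which encodes ChREBP (log2 -0.99, adjusted p = 0.000176, and log2 -0.48, adjusted p = 0.0424, lost in 7 of those fits). The interaction test called 7 of the 18, beside 2.59% of all genes, all with a smaller fall in HFD mice.

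Across the 16 libraries the 9 genes did not move as 1 block. The highest Pearson correlation of log2 CPM between any 2 of them was 0.64, for Fgf21 and Inhbe, followed by 0.60 for Fgf21 and Selenop, and the lowest were -0.79 for Ahsg and Lect2 and -0.69 for Angptl8 and Selenop. These describe 16 libraries that share the group differences and the scaling. Among 12042 genes with a mean of at least 50 counts, those most like each member over the same 16 libraries were Ldha, lactate dehydrogenase A, and Hilpda, a hypoxia-inducible lipid droplet gene, for Fgf21 (r = 0.879 and 0.868), and Mrps25, of the mitochondrial ribosome, for Angptl8 (0.946). They were Syap1 for Inhbe (0.934), Nnt, a mitochondrial transhydrogenase, for Selenop (0.928), and Fau and Cideb for Fetub (0.919 and 0.912). For Angptl4, Gdf15, Ahsg and Lect2 the closest genes were Supt6 (0.865), Arl6ip5 (0.816), Srrm4 (0.863) and AW112010 (0.884).

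The libraries held the markers of liver. The 7 hepatocyte markers summed to 103200 to 135900 CPM in CD fed and 87560 to 108600 CPM in CD fast livers, and to 107900 to 137000 CPM in HFD fed and 69920 to 101300 CPM in HFD fast livers, the HFD groups without overlap. With fasting 1 of the 7 was called lower in CD mice (Ttr), where 11.5% of all genes were lower. In HFD mice 2 were called lower (Tat and Hnf4a), where 4.07% of all genes were lower. The part of this in the changes of the 9 genes was not tested. Markers of exocrine pancreas summed to at most 0.372 CPM. Adipocyte markers summed to 2.08 to 70.2 CPM in HFD fast livers and to at most 6.95 CPM elsewhere, nearly all of it Cfd.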

How the data were processed

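RNA from 16 frozen mouse livers was poly(A)-enriched, made into NEBNext Ultra II libraries and sequenced by the authors. The submitters' processing notes name CASAVA 1.8.4, TopHat2 2.0.11, featureCounts and the builds mm10 and GRCm38. The deposited values are raw counts per Ensembl gene, whole and not normalized, with totals of 41364448 to 57583153 per library. Alignment used a first-strand library setting and annotation from Illumina iGenomes, and the annotation release and the strand setting of counting are not given in the sources used here.

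Symbols were matched for 45143 of 46078 genes. Counts were fitted with edgeR 4.0.16 (R 4.3.3, TMM scaling, filterByExpr, a group-means model of all 16 libraries with 12 residual degrees of freedom, two-sided quasi-likelihood F test), with Benjamini-Hochberg adjustment over the 15075 genes tested and a threshold of 0.05. A standard error is the log2 change divided by the square root of F. All 9 members passed the filter. Gene positions and merged exons are from GENCODE M21 (GRCm38), promoter windows from RefSeq (GRCm38.p6). The fit was tested on simulated data. Alternatives were scaling by upper quartile, by total count or by DESeq2 size factors, no filter, a filter of 1 CPM in 4 libraries, a replicate block, only the groups compared, DESeq2 1.42.0, limma-voom 3.58.1, and leaving out each library.

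The members and lists were chosen with earlier results of these data known. Named genes were the members, the 3 called genes of smallest adjusted p of each list in each pairwise comparison, a set of regulators and receptors, and the genes most correlated with each member. The averages over both diets or feeding states and the motif were added after seeing the data. Intervals are 95% intervals of the fitted change, and a count of 0 was given a limit of 3 counts, which covers counting error only. Results of some genes named by this rule are not reported here.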

Additional observations from a re-analysis of the deposited data

Results flagged for a closer look

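In each member's 4 groups of 4 libraries, the gap between the most extreme library and its nearest neighbour was compared with the range of the group by Dixon's 95% rule, and 2 of 36 groups exceeded it, where chance gives about 1 in 20 groups. Fetub in CD fast replicate 2 was at 715.3 CPM with a ratio of 0.921. Lect2 in CD fed replicate 1 was at 50.12 CPM, below the other 3 libraries of its group, with a ratio of 0.895.

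The fasting change differed between HFD and CD mice by the interaction term for none of the 9 members and for 14 of the other genes named by rule. Of all genes, 2.59% passed. Many named genes were picked by smallest adjusted p in a pairwise comparison, so the 14 are not a share of a fixed list. The difference is given as the log2 HFD change minus the log2 CD change. It was -0.8142 for Klb, 0.5952 for Tie1, 0.6956 for Dock6 and 1.472 for Orm1, an acute-phase plasma protein gene. Among PPARalpha targets it was -2.61 for Cyp4a10, -4.063 for Cyp4a14, -0.7523 for Acadl, -1.503 for Plin5 and -2.235 for Ehhadh. Among lipogenic genes it was 1.97 for Fasn, 0.9927 for Acaca, 3.803 for Pnpla3, 1.488 for Acly and 4.592 for Thrsp. The replicate block ended the Tie1 and Orm1 calls (adjusted p = 0.0553 and 0.0602), as did 10 and 12 of the 16 fits without 1 library, and 6 of those fits ended the Plin5 call.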

How the results depend on the processing

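Over the 4 pairwise comparisons and the interaction, the 9 members gave 45 results and 1116 alternatives, of which 1059 kept the direction and the side of the threshold, 0 lost a call, 18 gained one and 39 changed sign, all among values that had not passed. With total count scaling the median log2 change of all genes was 0.17 for the diet in fasted mice (0.01 with TMM), 0.13 for the diet averaged over feeding states (0.01), 0.13 for HFD fed against CD fast (0.02) and 0.14 for HFD fast against CD fed (0.02). It raised the share of calls that were higher from 39.6% to 88.1% for the diet in fasted mice, from 43.8% to 68.8% in fed mice, from 54.0% to 67.6% for fasting in HFD mice, from 47.4% to 69.5% for the interaction, from 43.6% to 72.4% for HFD fed against CD fast, from 49.4% to 74.0% for HFD fast against CD fed and from 41.5% to 84.7% for the averaged diet, and lowered it from 54.4% to 44.3% for fasting in CD mice. Upper quartile scaling raised it to 51.2% for the diet in fasted mice, 55.1% for the averaged diet and 60.1% (from 49.4%) for HFD fast against CD fed. The Selenop mean in HFD fast livers was 6309 CPM by total counts, over 1 SD from 5960.

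With total counts the sign changed for Angptl4 (HFD fast against CD fed 0.00076, averaged diet 0.079), Gdf15 (0.097 and 0.034 for the same), Ahsg (diet in fasted mice 0.027, HFD fed against CD fast 0.091, HFD fast against CD fed 0.041, averaged diet 0.066), Selenop (diet in fasted mice 0.023) and Lect2 (diet in fed mice 0.06). It also changed for Lect2 in fed mice with the upper quartile (0.0100) and only the groups compared (0.0020), for Gdf15 in HFD fast against CD fed with the upper quartile (0.024), the replicate block (0.024) and limma-voom (0.017), and for the interactions of Fgf21 (replicate block -0.19, limma-voom -0.28) and Inhbe (limma-voom -0.050). The cause was not tested.

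The number of members called for the diet in fed mice was 1 in place of 0 with the replicate block, only the groups compared or DESeq2, and 0 to 1 without single libraries. For the diet in fasted mice it was 1 with total counts, the upper quartile, the 1 CPM filter or the replicate block, 2 with DESeq2, and 0 to 1 without single libraries. For the averaged diet it was 2 with total counts. Without single libraries it was 1 to 2 for fasting in HFD mice, 1 to 3 for HFD fed against CD fast and 1 to 3 for HFD fast against CD fed. Replicate numbers were not treated as pairs in the edgeR fit of all 16 libraries. Deviations of the 24 same-numbered pairs correlated from -0.243 to 0.662 (median 0.058), and those of the 72 differently numbered pairs from -0.367 to 0.386 (median 9.86e-05). For fasting in CD mice the number of members called was 4 with only the groups compared, where Lect2 passed, and 3 to 4 without single libraries. With the replicate block the number called was 4 for fasting in CD mice, where Fgf21 passed (1.69, adjusted p = 0.0369), and Fetub passed for the diet in fed (0.0203) and fasted mice (0.0404).

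Leaving out 1 library changed the sign of values near 0 within these ranges. Fgf21 ran from -0.21 to 0.93 for the diet in fed mice and from -0.48 to 0.65 for the interaction. Angptl4 ran from -0.10 to 0.14 (HFD fed against CD fast), -0.27 to 0.030 (HFD fast against CD fed) and -0.11 to 0.040 (averaged diet), and Angptl8 from -0.041 to 1.02 for the diet in fasted mice. Gdf15 ran from -0.34 to 0.06 (HFD fed against CD fast), -0.24 to 0.25 (HFD fast against CD fed), -0.053 to 0.19 (averaged fasting) and -0.19 to 0.054 (averaged diet), and Inhbe from -0.27 to 0.31 for the interaction. Fetub ran from -0.034 to 0.37 for fasting in CD mice and -0.048 to 0.35 for the interaction. Ahsg ran from -0.013 to 0.14 (fasting in CD), -0.22 to 0.042 (fasting in HFD), -0.13 to 0.12 (diet in fed mice), -0.18 to 0.065 (HFD fed against CD fast) and -0.081 to 0.050 (averaged fasting), Selenop from -0.015 to 0.06 for the averaged diet, and Lect2 from -0.14 to 0.17 for the diet in fed mice.

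Each member had at least 103 counts in every library, and the SD between the 4 libraries of a group ran from 4.47% of the mean for Selenop in HFD fast livers to 86.0% for Angptl8 in CD fast livers.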

Other observations

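Other proteins secreted by the liver, a list of 26 genes of which 25 were tested, gave a mixed picture. Fasting raised 7 and lowered 3 in CD mice, where 25.2% of all genes passed, and raised 4 and lowered 1 in HFD mice, where 8.86% passed. Fgl1, a fibrinogen-like hepatokine and immune ligand, rose from 120 to 419 CPM in CD mice (log2 1.80, adjusted p = 0.000656) and from 146 to 587 CPM in HFD mice (log2 2.01, adjusted p = 0.00159). Apoa4, an apolipoprotein of triglyceride-rich particles, rose from 531 to 7070 CPM in CD mice (log2 3.74, adjusted p = 0.00205), and Rbp4, the plasma carrier of retinol, by 0.64 on the log2 scale (adjusted p = 0.000637). Sdc4, a heparan sulphate proteoglycan of the cell surface, fell in CD (log2 -0.63, adjusted p = 0.00211) and HFD mice (log2 -0.61, adjusted p = 0.00899).

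The high-fat diet lowered 2 of the 25 in fed mice (7.50% of all genes passed), Manf, a protein induced by endoplasmic reticulum stress (103 to 38.1 CPM, log2 -1.43, adjusted p = 0.00853), and Orm1 (397 to 162 CPM, log2 -1.29, adjusted p = 0.00869). In fasted mice, where 7.70% of all genes passed, it lowered 3, the IGF carrier Igfbp1 (203 to 18.2 CPM, log2 -3.48, adjusted p = 0.0236), the activin antagonist Fst (4.88 to 0.855 CPM, log2 -2.50, adjusted p = 0.0430, libraries overlapping) and Rbp4 (log2 -0.41, adjusted p = 0.0303). With only the groups compared these 3 did not pass (adjusted p = 0.0790, 0.109 and 0.143). Without CD fast replicate 2, at 616 CPM of Igfbp1 and 9.52 CPM of Fst, the values were -1.83 (adjusted p = 0.0904) and -1.95 (0.119), and in all 3, 9 and 5 of the 16 fits without 1 library lost the Igfbp1, Fst and Rbp4 calls.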
